A study of Homo sapiens with 9 samples.

Results

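Transcripts of 10 genes of the epithelial tight junction were followed in the parental mammary line MCF10A and its 2 transformed derivatives MC26 and M1B26. They were the claudins CLDN1, CLDN3, CLDN4, CLDN7, CLDN8, CLDN12 and CLDN23, the MARVEL-domain protein occludin (OCLN), the scaffold ZO-1 (TJP1) and the adhesion molecule JAM-A (F11R). Members were taken from the count table by symbol, and all 10 were found among its 60199 symbols. A filter on low counts kept 15717 genes for testing, of which 8 were members, and CLDN3 and CLDN8 did not pass it.

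RNA was measured in 3 libraries of each line by poly-A sequencing. The untreated control, CT, was MCF10A, an established non-malignant human mammary epithelial line, grown without added cytokines and labelled as not transformed. MC26 cells came from unsorted MCF10A cells, and the M1B26 line was begun with cells first sorted on their surface BMPR1B, a receptor for bone morphogenetic proteins. Both lines were transformed by prolonged exposure to the growth factor BMP2 and the cytokine IL6, which were also present in their culture medium, so line and cytokines cannot be told apart. M1B26 was raised from 3 colonies picked in soft agar, all 3 lines go back to 1 parental line, and the labels do not state whether libraries stem from different clones or cultures, so p-values measure the spread between these libraries, which may be technical.

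Tight junctions close the space between neighbouring epithelial cells near their apical border. Claudins form the strands that seal the space or let selected ions through, occludin sits in the same strands, JAM-A holds membranes together early in assembly, and ZO-1 anchors the strands to actin. In mammary epithelium these proteins keep the duct lumen closed, and low CLDN3, CLDN4 and CLDN7 are part of the definition of the claudin-low class of breast tumors.

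The libraries held 21425118 to 80076597 counts, CT replicate 2 being the shallowest. Levels are given as CPM, the usual per-library scaling of counts, on library sizes adjusted by TMM, and 3 counts, the limit of detection used here, stood for 0.0366 to 0.131 CPM. KRT5, a keratin of basal mammary cells, lay between 4633 and 7299 CPM in every library. CDH1, the epithelial cadherin, was at 67.6 to 86.2 CPM in CT and at 34.2 to 55.3 CPM in the transformed lines. The leukocyte marker CD3E had no count in any library, and PTPRC, CDH5 and VWF stayed below 0.1 CPM. Other markers of leukocytes, endothelium and fibroblasts were detected. CD68 was at 7.86 to 31.0 CPM over all libraries, PECAM1 at 0.0746 to 5.32 CPM and DCN at 5.45 to 47.3 CPM. A gene was called changed at a Benjamini-Hochberg adjusted p under 0.05 over all genes tested, from edgeR's quasi-likelihood test. Unless another test is named, every adjusted p below comes from that test, and fold changes are on the log2 scale with their standard error (SE).

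The first question was which junction transcripts differed between MC26 and parental cells. OCLN, CLDN1, CLDN4 and CLDN7 all fell in MC26, to between 9.70% and 28.7% of the CT mean. CLDN12 was slightly higher, and CLDN23, TJP1 and F11R did not pass the test. Thus 5 of 8 tested members were called in MC26 against CT, beside 38.7% of all genes tested. Of these, 4 were lower, where 19.9% of all genes were, and 1 was higher, where 18.8% were. The CPM ranges of the lines did not overlap for 4 members, and they did not overlap for 50.3% of all genes. The median log2 fold change was -0.97 over the tested members and 0.00 over all genes.

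OCLN showed the greatest loss among the members in MC26. The gene lies at chr5:69492292-69558104 on the plus strand (GRCh38). Its level in CT replicates 1 to 3 was 5.09, 4.46 and 3.81 CPM. In MC26 it was 0.497, 0.445 and 0.353 CPM, which rested on 20, 17 and 15 counts. In M1B26 it was 1.83, 1.99 and 3.31 CPM. The lines thus formed separate ranges, with every MC26 library lowest and every M1B26 library between MC26 and CT. Against CT, OCLN in MC26 had a log2 fold change of -3.36 with an SE of 0.27 (adjusted p = 6.76e-06), a 10.3-fold difference with a 95% interval of 6.76 to 15.6. The corresponding value of M1B26 was -0.90 (SE 0.22, adjusted p = 0.00687), and M1B26 exceeded MC26 by 2.46 (SE 0.28, adjusted p = 8.85e-05). A pseudogene copy, OCLNP1, held 3 counts over all 9 libraries.

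CLDN1, a barrier-forming claudin also known from the epidermis, lies at chr3:190305707-190322446 on the minus strand. It stood at 18.2, 16.6 and 12.9 CPM in CT. Levels in MC26 were 1.54, 1.91 and 3.15 CPM. Those in M1B26 were 6.85, 4.69 and 9.44 CPM. The ordering was that of OCLN, with CT highest, M1B26 between and MC26 lowest, and no range touched another. CLDN1 fell by 2.85 (SE 0.29, adjusted p = 3.25e-05) in MC26 and by 1.18 (SE 0.26, adjusted p = 0.00337) in M1B26, each against CT, on the log2 scale. M1B26 exceeded MC26 by 1.67 (SE 0.29, adjusted p = 0.00127). Within both transformed lines CLDN1 was uneven, its highest library holding 2.05 times the lowest in MC26 and 2.01 times in M1B26.

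CLDN7, which binds EPCAM and is found along the lateral membrane as well as in the strands, was lower in MC26 but was not called in M1B26 against CT. It lies at chr17:7259903-7263983 on the minus strand. CT libraries held 24.2, 18.6 and 19.8 CPM. MC26 libraries held 6.12, 5.26 and 6.56 CPM. M1B26 libraries held 13.6, 13.8 and 25.3 CPM, so replicate 3 lay above every CT library and the other two below all of them. The fall in MC26 was 1.81 on the log2 scale (log2 fold change -1.81, SE 0.23, adjusted p = 0.000140). Against CT, M1B26 differed by -0.25 (95% interval -0.72 to 0.22, adjusted p = 0.355), and against MC26 by 1.56 (SE 0.23, adjusted p = 0.000443). Without M1B26 replicate 3 the difference from CT was -0.61 (adjusted p = 0.00431), so this library decided the call. On chromosome 17 as a whole (843 genes tested) the median log2 difference from CT was 0.48 in M1B26 and 0.00 in MC26. On the chromosomes of the other tested members, CLDN23 aside, these medians ran from -0.07 to 0.01. The part of the chromosome-wide shift in the CLDN7 level of M1B26 was not tested. Annotated exons of other genes share 10.8% of the exonic bases of CLDN7 on its own strand and 1.52% on the other strand, so some of its reads could belong to them.

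CLDN4, a sealing claudin of glandular epithelia, lies at chr7:73799542-73832690 on the plus strand, 29.3 kb from CLDN3. Its CT levels were 1.61, 1.49 and 2.05 CPM. MC26 held 0.622, 0.340 and 0.424 CPM, on 25, 13 and 18 counts. M1B26 held 0.451, 0.734 and 0.868 CPM. Both transformed lines lay below every CT library and overlapped each other. Relative to CT, CLDN4 fell by 1.91 log2 units (SE 0.29, adjusted p = 0.000508) in MC26 and by 1.33 log2 units (SE 0.27, adjusted p = 0.00210) in M1B26. Between the transformed lines the log2 difference was 0.57 with an interval of -0.11 to 1.26 (adjusted p = 0.167), an interval that reaches up to a 2.39-fold difference.

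The promoters of these 4 genes are shown because all 4 transcripts fell in MC26. The windows are RefSeq sequences of GRCh38.p14, each 300 bases long from 250 before to 50 after an annotated start, printed along the gene's strand. RefSeq windows were found for 7 of the 10 members, CLDN8 and F11R having no entry and CLDN23 not being used, and CLDN7 and OCLN had 2 starts each, of which 1 is shown. Capitals mark matches, on either strand, to CAGGTG (an E-box core bound by SNAI and ZEB repressors), AACCGGTT (the grainyhead motif), GGGCGG (the GC box), GGCGCC (a BMP SMAD element) and TTCNNNGAA (a STAT element). The windows were chr3:190322397-190322696 for CLDN1, chr7:73830746-73831045 for CLDN4, chr17:7262429-7262728 for CLDN7 and chr5:69492297-69492596 for OCLN.
CLDN1: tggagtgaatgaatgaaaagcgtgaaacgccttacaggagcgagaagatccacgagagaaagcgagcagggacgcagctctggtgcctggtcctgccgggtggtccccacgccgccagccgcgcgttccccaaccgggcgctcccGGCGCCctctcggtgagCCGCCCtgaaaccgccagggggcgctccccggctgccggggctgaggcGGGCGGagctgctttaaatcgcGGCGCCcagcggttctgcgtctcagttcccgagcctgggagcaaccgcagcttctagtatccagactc
CLDN4: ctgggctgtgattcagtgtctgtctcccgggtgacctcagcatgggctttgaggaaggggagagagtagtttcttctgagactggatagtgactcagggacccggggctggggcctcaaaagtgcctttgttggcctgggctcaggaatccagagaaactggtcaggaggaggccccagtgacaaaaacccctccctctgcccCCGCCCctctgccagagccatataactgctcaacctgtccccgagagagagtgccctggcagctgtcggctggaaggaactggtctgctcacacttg
CLDN7: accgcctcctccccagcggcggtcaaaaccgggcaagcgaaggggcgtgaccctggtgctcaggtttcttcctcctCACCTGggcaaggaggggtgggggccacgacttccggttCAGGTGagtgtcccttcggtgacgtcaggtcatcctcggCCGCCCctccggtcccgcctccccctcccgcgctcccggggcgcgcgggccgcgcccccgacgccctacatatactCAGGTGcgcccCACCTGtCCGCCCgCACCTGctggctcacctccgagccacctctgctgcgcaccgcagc
OCLN: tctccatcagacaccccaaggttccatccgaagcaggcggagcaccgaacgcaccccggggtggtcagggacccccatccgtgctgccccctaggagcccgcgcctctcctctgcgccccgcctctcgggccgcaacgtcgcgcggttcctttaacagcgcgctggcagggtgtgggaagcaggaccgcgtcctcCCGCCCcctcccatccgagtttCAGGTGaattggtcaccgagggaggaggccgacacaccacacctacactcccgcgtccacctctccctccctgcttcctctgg

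The CLDN7 window held 5 matches to the E-box, beginning at -174, -135, -20, -9 and 5 relative to the start, and 2 GC boxes. The OCLN window held 1 E-box, at -33, and 1 GC box. In CLDN1 there were 2 GC boxes and 2 matches to GGCGCC but no E-box, and in CLDN4 there was 1 GC box only. No match overlapped another in these windows. Of 35116 RefSeq windows of this length, 20.6% held CAGGTG, 45.0% GGGCGG, 19.2% GGCGCC, 7.66% TTCNNNGAA and 0.134% AACCGGTT. The second OCLN window held 2 E-boxes, whereas the other CLDN7 window held no match to any of the 5 motifs. E-boxes were not limited to genes that fell in MC26. TJP1, not called in MC26, had an E-box at -88 in the first of its 4 windows. CLDN3, which was not tested, had an E-box at 36. The CLDN12 window held 1 STAT match and no E-box. GC content was 67.0% in CLDN1, 59.0% in CLDN4, 71.7% in CLDN7 and 68.0% in OCLN, and the median over all windows was 58.7%. These are matches of letters and do not show binding.

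**Figure D1:**
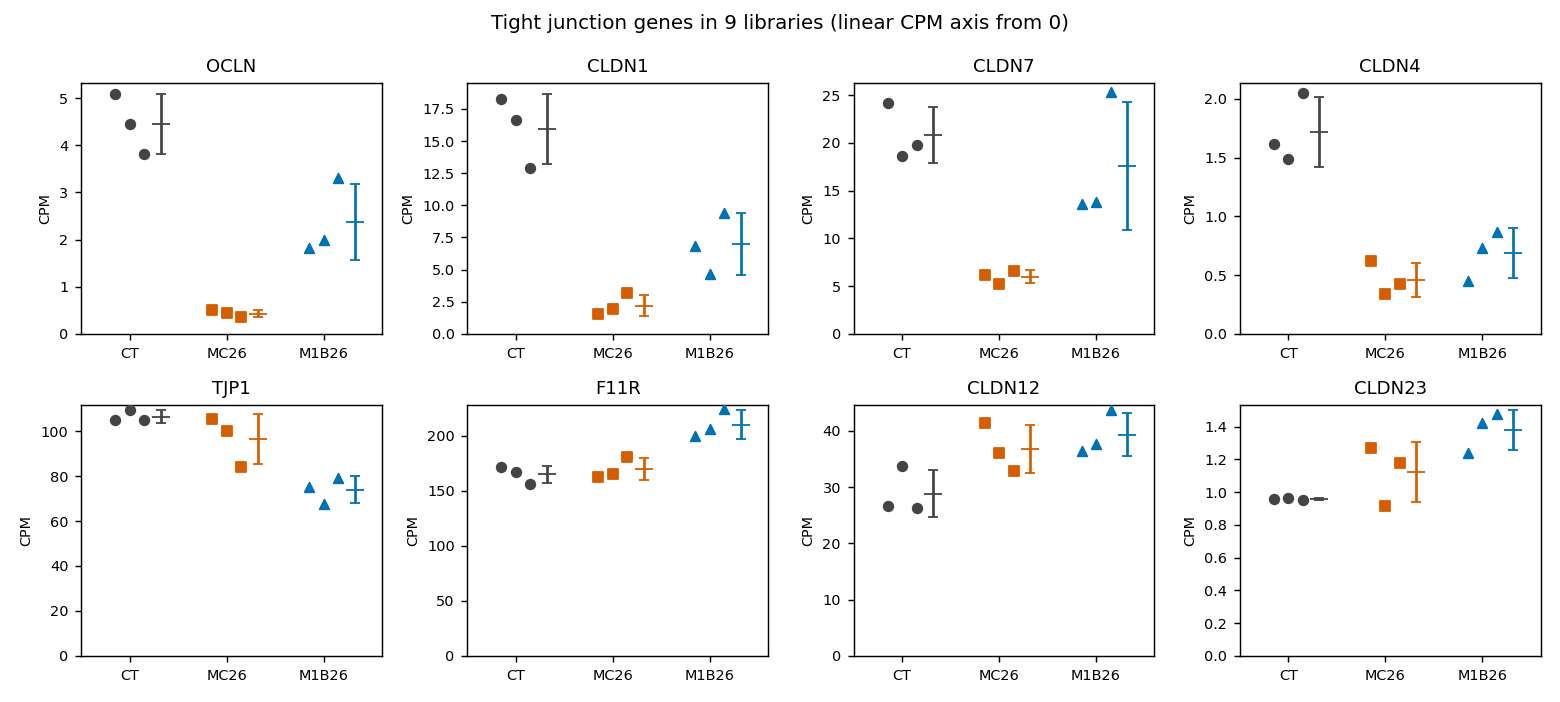
Level of each of the 8 tested members in CPM (vertical axes, linear from 0) in the 3 libraries of CT (circles), MC26 (squares) and M1B26 (triangles), drawn in the order of replicates 1 to 3, with mean and SD (bars) beside them. OCLN, CLDN1 and CLDN7 sit lowest in MC26, CLDN4 is low in both transformed lines, which overlap, and M1B26 replicate 3 is the highest M1B26 library in all 8 panels.

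The remaining claudin members with measurable levels did not share this loss. CLDN12, which lacks the C-terminal PDZ-binding end of most claudins, lies at chr7:90383721-90513402 on the plus strand. It was at 26.6, 33.8 and 26.2 CPM in CT, at 41.4, 36.2 and 32.9 CPM in MC26 and at 36.5, 37.8 and 43.7 CPM in M1B26. CT replicate 2 lay inside the MC26 range, while every M1B26 library was above CT. CLDN12 was higher than in CT by 0.36 (SE 0.12, adjusted p = 0.0327) in MC26 and by 0.46 (SE 0.12, adjusted p = 0.00830) in M1B26. Between the transformed lines the log2 difference was 0.10 (interval -0.16 to 0.35, adjusted p = 0.544). The MC26 call was lost under 8 of 17 alternative analyses, among them leaving out CT replicate 1 or 3 or MC26 replicate 1 or 2 (adjusted p up to 0.120). Annotated exons of other genes on the same strand, including CDK14 and GTPBP10, cover 17.6% of its exonic bases.

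CLDN23, a claudin of less studied function, was low throughout. CT libraries held 0.957, 0.961 and 0.952 CPM, MC26 libraries 1.27, 0.915 and 1.18 CPM, and M1B26 libraries 1.24, 1.42 and 1.48 CPM. M1B26 lay above CT in all 3 libraries, and MC26 overlapped both lines. The log2 difference from CT was 0.53 in M1B26 (SE 0.18, adjusted p = 0.0345) and 0.23 in MC26 (interval -0.19 to 0.65, adjusted p = 0.367), and M1B26 differed from MC26 by 0.30 (interval -0.11 to 0.71, adjusted p = 0.222). The M1B26 call was lost under 10 of the 17 alternatives, among them leaving out any 1 CT library or M1B26 replicate 2 or 3 (adjusted p up to 0.102), and under DESeq2 (adjusted p = 0.0832).

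CLDN3, a sealing claudin and neighbor of CLDN4 at chr7:73768997-73770270, had 1, 0 and 2 counts in the CT libraries and 0 in the 6 others. CLDN8, a claudin of tight, salt-retaining epithelia at chr21:30214006-30216097, had 0 counts in all 9. Both were at or under the limit of detection in every library, so no fold change was computed for them.

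F11R encodes JAM-A, an immunoglobulin-fold adhesion protein that helps to recruit polarity proteins, and lies at chr1:160995211-161021343 on the minus strand. Its CT levels were 171, 167 and 156 CPM and its MC26 levels were 163, 166 and 181 CPM. In M1B26 they were 199.99, 206 and 225 CPM, above every library of the other two lines. MC26 differed from CT by 0.04 (interval -0.12 to 0.20, adjusted p = 0.674). M1B26 exceeded CT by 0.35 (SE 0.07, adjusted p = 0.00219) and MC26 by 0.31 (SE 0.07, adjusted p = 0.00642), again in log2 units. An annotated gene without a symbol shares 36.6% of the exonic bases of F11R on the same strand.

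TJP1, the scaffold ZO-1, moved the other way in M1B26. It lies at chr15:29699367-29968915 on the minus strand. CT libraries stood at 105, 109.6 and 105 CPM, MC26 libraries at 105, 100.2 and 83.9 CPM, and M1B26 libraries at 74.9, 67.8 and 79.3 CPM. Every M1B26 library was below every other library, whereas CT and MC26 overlapped. TJP1 fell in M1B26 by 0.52 against CT (log2 fold change -0.52, SE 0.09, adjusted p = 0.000713) and by 0.38 against MC26 (log2 fold change -0.38, SE 0.09, adjusted p = 0.00664). In MC26 against CT it was -0.14 (interval -0.34 to 0.06, adjusted p = 0.238).

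In M1B26 against CT, 7 of 8 tested members were called, beside 48.9% of all genes. The 4 lower ones were OCLN, CLDN1, CLDN4 and TJP1, where 23.7% of all genes were lower. The 3 higher ones were CLDN12, CLDN23 and F11R, where 25.2% of all genes were higher. Ranges did not overlap for 7 members, and for 59.0% of all genes. The median was -0.39 over members and 0.00 over all genes. Both comparisons with CT use the same CT libraries, so their values are set side by side and not as separate evidence. As a percentage of the CT mean, MC26 and M1B26 stood at 9.70 and 53.3 for OCLN, 13.8 and 43.9 for CLDN1, 26.9 and 39.9 for CLDN4, and 28.7 and 84.1 for CLDN7.

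The question put to M1B26 against MC26 was how the 2 transformed lines differ from each other. OCLN, CLDN1, CLDN7 and F11R were higher in M1B26 and TJP1 was lower. These were 5 of 8 tested members, beside 39.5% of all genes called, with 4 higher (21.2% of all genes) and 1 lower (18.4% of all genes). For 5 members the ranges did not overlap, which held for 53.5% of all genes. The median was 0.44 over members and 0.00 over all genes. OCLN, CLDN1 and CLDN7 were thus lower in MC26 than in CT and higher in M1B26 than in MC26, and OCLN and CLDN1 were still lower in M1B26 than in CT. Both comparisons with MC26 use the same MC26 libraries, so these calls are not separate evidence. The share of all genes with this pattern was not counted.

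**Figure D2:**
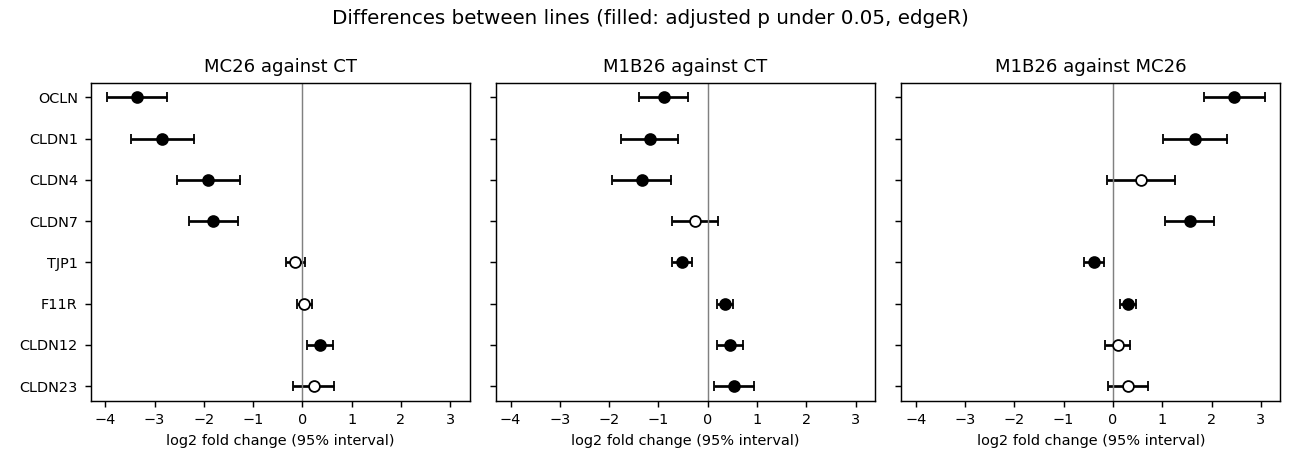
Log2 fold change of each tested member (points) with its 95% interval (bars) for the 3 pairs of lines (MC26 over CT, M1B26 over CT, M1B26 over MC26), on a common horizontal axis. Filled points passed an adjusted p under 0.05 in edgeR; OCLN has the lowest value in MC26 against CT (-3.36) and the highest in M1B26 against MC26 (2.46).

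M1B26 replicate 3 was the highest M1B26 library for all 8 tested members. Its level was 1.81 to 2.01 times that of the lowest M1B26 library for OCLN, CLDN1, CLDN4 and CLDN7, and at most 1.20 times for the other 4. Leaving it out, M1B26 against MC26 still called the same number of members, 5. The share of all genes with their highest M1B26 level in replicate 3 was not counted. Among genes that are not members, CDH1 and EPCAM were also highest there and SNAI2 was lowest. SNAI1 went the other way, at 2.25, 1.78 and 2.90 CPM in M1B26 replicates 1 to 3. ZEB1 and ZEB2 were neither highest nor lowest in replicate 3. What set this library apart was not tested, and its total of 55048760 counts was the highest of the line.

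Levels can be compared between genes only per length, so CPM were divided by exonic length in kilobases (RPKM). F11R was the most abundant member in every line, at 32.6 ± 1.54 RPKM in CT cells, 33.6 ± 1.93 in MC26 cells and 41.5 ± 2.56 in M1B26 cells (SD, n = 3). In CT it was followed by TJP1 at 9.41 and CLDN7 at 8.37 RPKM, whose ranges overlapped, and by CLDN1 at 4.39 and CLDN12 at 4.30 RPKM, which overlapped too. CLDN23 at 0.443, OCLN at 0.395 and CLDN4 at 0.365 RPKM came last of the tested members, with overlapping neighbours. In MC26 the order after F11R was TJP1 at 8.53, CLDN12 at 5.49, CLDN7 at 2.40 and CLDN1 at 0.607 RPKM, each apart from the one before it. There CLDN1 overlapped CLDN23 at 0.519 RPKM, and CLDN4 at 0.0983 and OCLN at 0.0383 RPKM were lowest and apart. In M1B26, CLDN7 at 7.04, TJP1 at 6.54 and CLDN12 at 5.86 RPKM overlapped as neighbours. CLDN1 at 1.93 and CLDN23 at 0.639 RPKM stood apart below them, and OCLN at 0.211 and CLDN4 at 0.146 RPKM overlapped.

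The share of each claudin in the summed claudin RPKM was compared as a description of makeup, since 3 libraries a line allow no share to pass a threshold of 0.05. CLDN7 made up 46.8% ± 4.29 of the summed claudin RPKM in CT cells, 26.3% ± 2.43 in MC26 cells and 44.2% ± 5.41 in M1B26 cells (SD, n = 3). CLDN1 made up 24.4% ± 2.25, 6.71% ± 2.67 and 12.2% ± 2.23 in the same order. CLDN12 took 24.2% ± 3.92 in CT, 60.2% ± 5.18 in MC26 and 38.4% ± 5.34 in M1B26, and it had the highest share in every MC26 library, as CLDN7 had in every CT library. The place of CLDN7 in CT depended on the division by exonic length, 2.49 kb for CLDN7 and 6.71 kb for CLDN12. In CPM, CLDN12 was above CLDN7 in every library, with 26.6, 33.8 and 26.2 against 24.2, 18.6 and 19.8 in CT. By RPKM, the place of CLDN7 above CLDN12 in M1B26 rested on replicate 3. There CLDN7 was at 10.1 and CLDN12 at 6.51 RPKM, against 5.45 and 5.44 in replicate 1 and 5.53 and 5.63 in replicate 2, so without replicate 3 the means were 5.49 and 5.54 RPKM. CLDN23 held 2.49%, 5.67% and 4.21%, and CLDN4 held 2.07%, 1.07% and 0.936%. The summed level was 17.9 ± 1.60 RPKM in CT, 9.11 ± 0.627 in MC26 and 15.6 ± 3.91 in M1B26.

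Between 3 and 3 libraries a 2-sided exact permutation test cannot go below p = 0.1. That smallest value was reached by the share of each of the 5 claudins in MC26 against CT (adjusted over the 5, p = 0.1 by the exact test). It was not reached by CLDN7 in M1B26 against CT (exact p = 0.7, a difference of -2.56 percentage points) or by CLDN4 in M1B26 against MC26 (exact p = 0.6, -0.13 points). For the summed level the exact p was 0.1 in MC26 against CT, 0.4 in M1B26 against CT and 0.1 in M1B26 against MC26. Shares within a library sum to a fixed total, so the 5 shares are tied to each other and are not separate results. CLDN12 itself had a mean of 4.30 RPKM in CT and 5.49 RPKM in MC26.

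**Figure D3:**
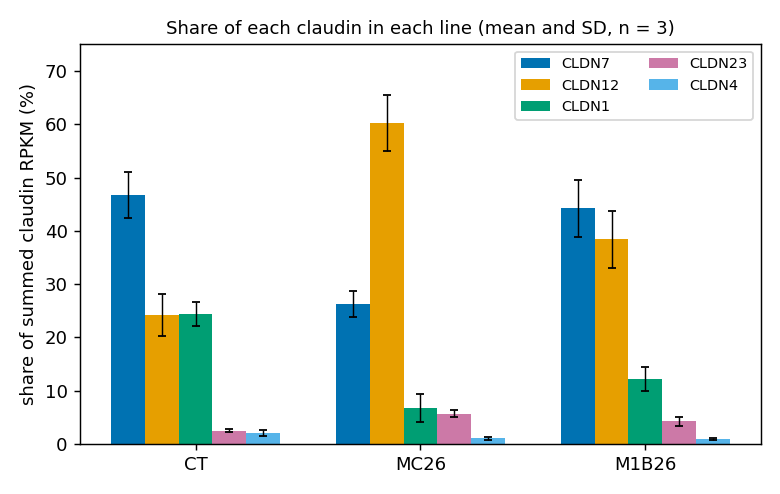
Share of each claudin in the summed claudin RPKM (vertical axis, percent, from 0) in CT, MC26 and M1B26, as the mean of 3 libraries with SD. CLDN12 is the tallest bar in MC26 at 60.2%, and CLDN7 is the tallest in CT at 46.8% and, through replicate 3, in M1B26 at 44.2%. Before division by length, CLDN12 was above CLDN7 in every library. CLDN3 and CLDN8 were at or near 0 and are not drawn.

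Of 17 further claudins, 10 had no count in any library and 13 never exceeded 3 counts. CLDN15, a pore-forming claudin, was the only one tested and the only one with a mean of at least 1 CPM in any line. It stood at 3.26, 2.62 and 2.81 CPM in CT, 2.24, 1.99 and 2.45 CPM in MC26 and 3.22, 2.67 and 2.09 CPM in M1B26, and was called in no comparison (adjusted p = 0.115 in MC26 and 0.558 in M1B26, each against CT, and 0.296 between the transformed lines). Every MC26 library was nonetheless below every CT library, with a log2 fold change of -0.39 (interval -0.79 to 0.01). CLDN16, whose annotated start lies 95 bases from that of CLDN1, had 9 counts at most and was not tested.

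Other membrane proteins of the junction were read from a list of 12, of which 9 were tested. In MC26 against CT, 1 was higher and 5 were lower (median -0.85), where 18.8% and 19.9% of all genes were. In M1B26 against CT, 2 were higher and 2 lower (median 0.19), where 25.2% and 23.7% of all genes were. In M1B26 against MC26, 5 were higher and 1 lower (median 0.98), where 21.2% and 18.4% of all genes were. EPCAM, the adhesion protein that binds CLDN7 and CLDN1, had the lowest value in MC26 against CT. It was at 74.4, 71.2 and 65.6 CPM in CT, 11.7, 13.5 and 19.1 CPM in MC26 and 67.1, 63.5 and 85.7 CPM in M1B26. The MC26 libraries lay far below both other lines, which overlapped. EPCAM fell by 2.25 (log2 fold change -2.25, SE 0.17, adjusted p = 3.65e-06) in MC26 and differed by 0.04 (interval -0.31 to 0.38, adjusted p = 0.865) in M1B26, both against CT. ILDR2, an angulin of tricellular junctions, was highest in MC26 against CT at 0.81 (SE 0.20, adjusted p = 0.00934), and lost its call without CT replicate 1.

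JAM3, a junctional adhesion molecule related to F11R, was the membrane gene with the highest value in both comparisons of M1B26. It stood at 0.829, 0.568 and 0.854 CPM in CT, at 0.249, 0.235 and 0.306 CPM in MC26 and at 11.3, 11.3 and 7.90 CPM in M1B26. No range overlapped another, and M1B26 was far above the rest. M1B26 exceeded CT by 3.69 (SE 0.20, adjusted p = 2.84e-07), or 12.9-fold, and MC26 by 5.25 (SE 0.23, adjusted p = 2.38e-07), or 38.1-fold. F11R itself differed from CT by 0.35 there.

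Among 19 tested scaffold and polarity proteins of a list of 21, 6 were higher and 9 lower in MC26 against CT. There 38.7% of all genes tested were called. In M1B26 against CT, 1 was higher and 9 lower, beside 48.9% of all genes called. In M1B26 against MC26, 6 were higher and 4 lower, beside 39.5% of all genes called. The medians were -0.22, -0.36 and -0.05. TJP3, the scaffold ZO-3 and a relative of TJP1, had the lowest value against CT in both lines. It was at 14.0, 9.92 and 15.02 CPM in CT, at 0.0497, 0.0523 and 0.353 CPM in MC26 on 2, 2 and 15 counts, and at 0.135, 0.189 and 0.295 CPM in M1B26. MC26 replicates 1 and 2 were under the limit of detection of 3 counts, the other 4 transformed libraries were above it, and every CT library was far above them all. With so few counts the size of the fold is uncertain. The fitted log2 fold change was -6.36 (SE 0.41, adjusted p = 1.54e-06) in MC26 and -5.93 (SE 0.39, adjusted p = 1.07e-06) in M1B26, where TJP1 had -0.14 and -0.52. PARD6G, a subunit of the apical PAR complex, had the highest value in both, at 0.46 (adjusted p = 0.00340) and 0.997 (adjusted p = 1.41e-05). In M1B26 against MC26 the extremes were PARD6A, another PAR6 subunit, at 1.73 (adjusted p = 0.00157) and AMOTL2, an angiomotin of the junction, at -0.54 (adjusted p = 0.00687).

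Matriptase (ST14) and prostasin (PRSS8) are surface proteases that act on claudin partners such as EPCAM, and SPINT1 and SPINT2 inhibit them. Of these 4, 3 were lower in MC26 against CT, 1 was lower in M1B26 against CT and 3 were higher in M1B26 against MC26. Over all genes tested, the shares called in these directions were 19.9%, 23.7% and 21.2%. ST14 had -0.85 (SE 0.16, adjusted p = 0.00162) in MC26 against CT and 0.67 (SE 0.16, adjusted p = 0.00656) in M1B26 against MC26. SPINT2 had -0.53 (adjusted p = 0.000414) in MC26 against CT, and SPINT1 had -0.45 (adjusted p = 0.00538) in M1B26 against CT. PRSS8 had 0.41 (adjusted p = 0.0267) in M1B26 against MC26, a call lost under 4 of 17 alternatives, among them without MC26 replicate 1 or 2 or M1B26 replicate 3.

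Of 13 transcription factors known to act on junction genes, 11 were tested. In MC26 against CT, 4 were higher and 5 lower. In M1B26 against CT, 1 was higher and 3 lower, and in M1B26 against MC26, 2 were higher and 6 lower. Over all genes tested, 38.7%, 48.9% and 39.5% were called in these comparisons in turn. SNAI2, a repressor known to bind E-boxes of the kind searched for above, was at 30.2, 31.3 and 29.9 CPM in CT, at 163, 154 and 96.3 CPM in MC26 and at 71.9, 89.2 and 66.6 CPM in M1B26. The ranges were separate, with MC26 highest and CT lowest. The other SNAI and ZEB factors of the list did not share this order. In CT, MC26 and M1B26 the means were 3.23, 3.87 and 2.31 CPM for SNAI1. They were 7.43, 10.1 and 5.86 CPM for ZEB1 and 6.67, 3.65 and 2.34 CPM for ZEB2. SNAI2 rose by 2.18 (SE 0.18, adjusted p = 6.76e-06) in MC26 and by 1.32 (SE 0.17, adjusted p = 0.000128) in M1B26 against CT, and differed by -0.86 (SE 0.17, adjusted p = 0.00256) between M1B26 and MC26. A link between SNAI2 and the members was not tested.

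GRHL3, a grainyhead activator of epithelial genes, was at 8.67, 6.25 and 7.87 CPM in CT, 0.696, 0.680 and 1.67 CPM in MC26 and 2.43, 2.08 and 4.89 CPM in M1B26. Its ranges were separate, with CT highest and MC26 lowest, and it was the highest called factor in M1B26 against MC26 at 1.63 (SE 0.39, adjusted p = 0.00714). ELF3, an epithelial ETS factor, had the lowest value against CT in both lines, at -3.54 (SE 0.68, adjusted p = 0.00203) in MC26 and -1.59 (SE 0.53, adjusted p = 0.0269) in M1B26. The latter call was lost under 5 of 16 alternatives, among them without CT replicate 1 or 3 or M1B26 replicate 1 or 2, and the ELF3 ranges of M1B26 and CT overlapped.

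**Figure D4:**
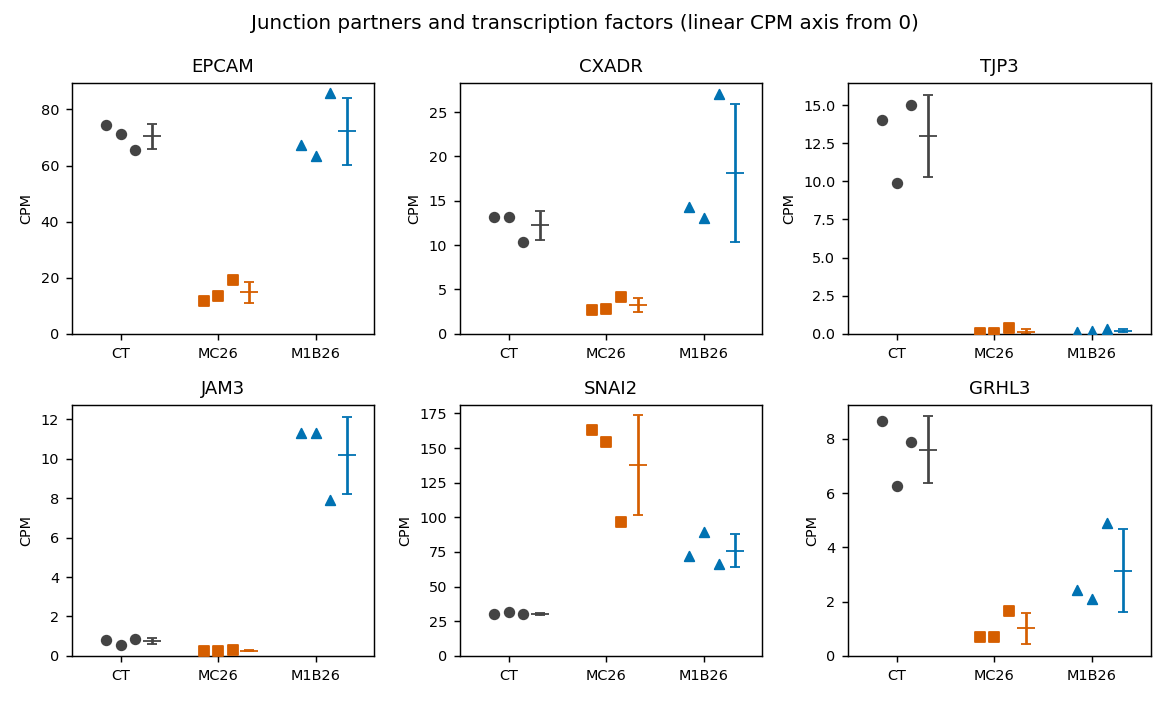
Level in CPM (vertical axes, linear from 0) of the CLDN7 partner EPCAM, the membrane proteins CXADR and JAM3, the scaffold TJP3 and the factors SNAI2 and GRHL3 in the 3 libraries of CT (circles), MC26 (squares) and M1B26 (triangles), with mean and SD. EPCAM and CXADR are lowest in MC26, TJP3 is near 0 in both transformed lines, JAM3 is high only in M1B26 among these lines, and SNAI2 is highest in MC26; CXADR was added to the plot after its values were seen.

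Genes whose levels followed a member most closely were looked for among 10636 genes, by the root mean square difference of centred log2 CPM over the 9 libraries. For CLDN1 the nearest was RERG, a small GTPase, at 0.202, with means of 17.5, 2.49 and 8.51 CPM in CT, MC26 and M1B26. For CLDN7 it was CCNJL, at 0.220, with means of 15.1, 4.18 and 14.0 CPM. The other members were outside the rule for this search, through a mean under 5 CPM or group means less than 1 log2 unit apart.

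Lists of cell type markers moved with the lines as well. Over all genes tested, 38.7% were called in MC26 against CT, 48.9% in M1B26 against CT and 39.5% in M1B26 against MC26. The 8 basal markers summed to 8774 to 10791 CPM in CT, 14188 to 17904 in MC26 and 9625 to 10217 in M1B26. Keratins made up most of these sums. In CT, MC26 and M1B26 the means were 1948.5, 6213 and 3001 CPM for KRT6A and 54.1, 1097 and 548 CPM for KRT14. For KRT5 they were 6586, 6264 and 4924 CPM. Of the 8 markers, 4 were higher and 1 lower in MC26 against CT. The lower one was CDH1, the epithelial cadherin, which the list counts as basal. In M1B26, 4 were higher and 3 lower against CT, and 5 were lower against MC26. The 7 luminal markers, 5 of them tested, summed to 970 to 1172, 747 to 916 and 896 to 943 CPM, with 1 higher and 3 lower in each comparison with CT and 3 higher and 2 lower in M1B26 against MC26. Of the 5 fibroblast markers, 4 were tested and summed sets ran from 17.1 to 56.8 CPM over all libraries, with a lowest adjusted p of 0.0893 in MC26 against CT (unadjusted p under 0.05 in 1 of 4) and 2 higher in each comparison of M1B26. PECAM1, the only endothelial marker tested of 3, was at 4.76 to 5.32 CPM in CT and 0.0746 to 1.68 CPM in the other lines. CD68, the only leukocyte marker tested of 3, was at 7.86 to 10.5 CPM in CT and 18.1 to 31.0 CPM in the other lines. Their part in the member differences was not tested. In cultures measured in bulk, fewer cells of a kind and less RNA per cell cannot be told apart.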

How the data were processed

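Poly-A RNA of 9 libraries was sequenced from both ends, and titles gave each sample's group and replicate. The authors used STAR 2.7.3a on GRCh38 and deposited whole-number raw counts per gene symbol. The methods also name Salmon 1.1.0 on protein-coding genes, whereas the table holds non-coding genes too, so the counting program, its use of strand and how it handled multiply aligned reads are not given in the sources used here. Counts on exons shared with another gene could belong to either.

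Counts were fitted in R 4.3.3 with edgeR 4.0.16 (filterByExpr with a minimum count of 10, TMM, glmQLFit and 2-sided glmQLFTest, group as the only term, all 9 libraries). TMM factors were 0.968 to 1.07 and the biological coefficient of variation was 10.4%. The SE was the absolute log2 fold change divided by the square root of F, and intervals are at 95%. Total counts were 21425118 to 80076597 per library. Detection was taken as 3 counts per library, which covers counting error only. No library repeated another: log2 CPM of replicates correlated at 0.982 to 0.998 over genes, and their counts differed beyond sampling noise. Positions and exonic lengths came from GENCODE v44 on GRCh38, where 36923 of 60199 symbols matched 1 gene. Claudin shares were compared by 2-sided exact permutation tests (scipy 1.17.1). The labels name no library batches, and any batch running with the lines cannot be told apart from them.

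All members were named. From the other gene lists the text named the called genes with the highest and lowest log2 fold change in each comparison, claudins with a mean of at least 1 CPM, and for members with a mean of at least 5 CPM and group means at least 1 log2 unit apart the gene nearest in profile. The members and lists were chosen with earlier results of these data known. Settings varied in turn were the tool (DESeq2 1.42.0), the scaling (RLE or total counts), the filter (off, or 50 counts on average), only the 6 libraries compared, a replicate block, an adjusted p under 0.01, shares of CPM, and leaving out each library. Protein sequences were not used here. A gene that the naming rule picks in both comparisons of M1B26 is not reported here.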

Additional observations from a re-analysis of the deposited data

Results flagged for a closer look

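In 5 members the difference between each transformed line and CT was not the same in MC26 and M1B26, as tested by M1B26 against MC26 in edgeR with Benjamini-Hochberg adjustment. This difference of log2 fold changes was 2.46 for OCLN (adjusted p = 8.85e-05), 1.67 for CLDN1 (adjusted p = 0.00127), 1.56 for CLDN7 (adjusted p = 0.000443), 0.31 for F11R (adjusted p = 0.00642) and -0.38 for TJP1 (adjusted p = 0.00664). All 3 M1B26 libraries lay on the same side of all 3 MC26 libraries in each of the 5. Since 39.5% of all genes tested were called in that comparison, the count of 5 in 8 is not read as particular to junction genes.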

How the results depend on the processing

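Of 24 member fold changes, 21 kept their direction or lack of call under all 17 alternatives. The exceptions were CLDN12 in MC26 against CT (log2 fold change 0.27 to 0.48, not called under 8 alternatives), CLDN23 in M1B26 against CT (0.44 to 0.60, not called under 10) and CLDN7 in M1B26 against CT (-0.61 to -0.09, called only without M1B26 replicate 3). At an adjusted p under 0.01, 3698 genes were called in MC26 against CT and 3685 in M1B26 against MC26, against 6081 and 6215 at 0.05, since fewer pass a stricter threshold. With total counts and no scaling factors, 35.8% of calls in MC26 against CT and 39.6% in M1B26 against CT were higher, against 48.5% and 51.5% with TMM, and the members called were 4 and 6. Leaving out each library gave 4 to 5 members in MC26 against CT, 6 to 7 in M1B26 against CT and 5 throughout in M1B26 against MC26, and 4524 to 6127, 6282 to 7941 and 4503 to 7166 genes.

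Whether equal replicate numbers pair the libraries was not settled. Correlations of deviations over genes ran from -0.16 to 0.30 between libraries of equal number. Between MC26 and M1B26 they were 0.19, 0.07 and 0.20, and unequal numbers gave -0.26 to 0.11. Those of CT with the other lines had both signs. With 3 libraries a line, deviations from a line's mean are tied to each other, so these values cannot exclude pairing. With the replicate number as a block, 5879, 7513 and 6009 genes and 4, 6 and 5 members were called, the calls of CLDN12 in MC26 and CLDN23 in M1B26 against CT being lost. List counts moved by over 1.5 times for the transcription factors in M1B26 against CT (4 as reported, 7 with total counts, 3 to 7 over all alternatives) and in M1B26 against MC26 (8 as reported, 5 at 0.01, 5 to 10 over all), for the scaffold list in M1B26 against MC26 (10 as reported, 6 at 0.01, 6 without MC26 replicate 2, 6 to 13 over all) and for the proteases in M1B26 against CT (2 without CT replicate 1, 1 otherwise). Without a filter 1 further claudin was called lower in each comparison with CT. As shares of CPM, CLDN4 in MC26 minus CT was -1.57 points, and CLDN23 was 0.995 points in MC26 minus CT, 0.72 in M1B26 minus CT and -0.28 in M1B26 minus MC26. On that scale CLDN12 was above CLDN7 in every library, CT included. Depth limits CLDN4 and OCLN most in MC26, where their libraries held 13 to 25 and 15 to 20 counts.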

Other observations

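Further junction genes outside the naming rule, chosen after their values were seen, are given as values. MARVELD3, a MARVEL-domain relative of OCLN, was higher in M1B26 than in CT (log2 fold change 1.40, SE 0.18, adjusted p = 0.000106, edgeR) and than in MC26 (1.69, SE 0.19, adjusted p = 6.92e-05), with means of 4.56, 3.78 and 12.2 CPM in CT, MC26 and M1B26. In MC26 against CT it was at -0.29 (95% interval -0.71 to 0.12, adjusted p = 0.245). CXADR, a virus receptor of the junction, had means of 12.2, 3.22 and 18.1 CPM and differed by -1.91 on the log2 scale (SE 0.28, adjusted p = 0.000396, edgeR) in MC26 against CT and by 2.49 (SE 0.28, adjusted p = 8.48e-05) in M1B26 against MC26. Its M1B26 libraries held 14.3, 13.0 and 27.1 CPM, replicate 3 being highest as for the tested members. The scaffold cingulin (CGN) fell in MC26 by 2.17 against CT (log2 fold change -2.17, SE 0.31, adjusted p = 0.000358, edgeR) and the polarity gene PARD6B fell by 1.88 (log2 fold change -1.88, SE 0.24, adjusted p = 0.000163).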
